A study of Gallus gallus with 41 samples.

Results

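Cells of the early chick retina were set against cells taken 3 days later. The comparison holds the 6 single cells isolated at embryonic day 3 (E3) and the 10 isolated at embryonic day 6 (E6), chosen by the age in their titles, which makes 16 of the 41 cells of the series. Each was a freshly dissociated, uncultured chick retinal cell put on an Affymetrix chicken array of its own. The labels name no strain, sex, embryo or treatment for either age, and for E6 replicate 1 the source name gives E5 where the title gives E6, which was used. Since no embryo is named, the cells of an age may share an embryo and each age counted as 1 sample. No difference could therefore be tested, and standard deviations (SD) over cells only describe their spread.

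At E3 the chick retina is a sheet of dividing progenitors, which are held in cycle by Notch, FGF and other signals and keep an apical and a basal process. Ganglion cells are the first neurons to leave the cycle. A new ganglion cell grows an axon toward the optic nerve, builds up microtubules and vesicle traffic, and replaces many progenitor transcripts by neuronal relatives. Cell cycle and ganglion cell genes serve here as a frame, and the account turns to signalling, transcription factors, metabolism, adhesion and RNA processing.

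Values are log2 MAS5 signals, with all lower readings set to a floor of 5.0, the median of the whole table. Detection in a cell means a signal no lower than the 80th percentile of the array. That rule makes no use of the array background described below, so a detected signal can lie under it. Differences are E6 minus E3 means, and 3 log2 units, or 8-fold, was the size that counted. For a gene, the lowest, median and highest cell of an age are given in that order.

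The E3 cells were taken to be dividing and the E6 cells to be neurons, and 3 of 4 markers separated them that way. PBK, a mitotic kinase, read 12.12, 13.43 and 15.69 in E3 cells and 5.0, 5.0 and 6.07 in E6 cells. STMN2, a microtubule regulator of growing axons, read 5.0, 5.0 and 5.67 at E3 against 15.54, 16.53 and 18.75 at E6, and the membrane glycoprotein GPM6A 5.0, 5.0 and 6.02 against 14.25, 15.37 and 16.47. The ages did not overlap in these genes. NRIP1, a nuclear receptor corepressor, was split between its 2 probe sets, of which the brighter overlapped with a difference of -0.63 and the other stood at -8.46. Over 48 measured cell cycle genes the mean of a cell ran from 6.11 to 10.11 at E3 and from 5.72 to 7.68 at E6. E3 replicate 5 had the lowest E3 mean, inside the E6 range, and the next E3 cell stood at 9.07, so that cell carried PBK with a low level of most other cycle genes. PAX6, a homeobox factor of the eye field, was detected in 3 of the 6 E3 cells. Other factors of retinal progenitors were low at E3: SOX2 did not exceed 6.82, SIX3 7.91 and HES5 7.08, and LHX2 was detected in 3 cells, up to 13.68. The E3 cells also carried genes of other tissues, 4 of the 6 with PAX6 at 9.58 or lower. Replicates 1 and 5 had PAX6 at the floor and shared COL1A1, a collagen of mesenchyme (14.65 and 14.92), LUM, a proteoglycan of connective tissue and cornea (11.21 and 13.40), and FLI1, a factor of endothelial and mesenchymal cells (12.58 and 13.11), which did not exceed 8.13, 5.0 and 7.21 in the other E3 cells. Of other mesenchymal genes, COL1A2 was low in both (6.54 and 6.15), as was COL3A1 (5.0 and 6.49). FOXC2, of the same list, read 11.27 in replicate 1 and 6.81 in replicate 5. That list held 20 measured vascular and mesenchymal genes. Of these, CDH5, PECAM1, KDR, TEK, VWF, PDGFRA and ACTA2 were at the floor in both cells. Outside COL1A1, LUM, FLI1 and FOXC2, no gene of the list exceeded 8.11 in either cell. Replicates 4 and 6, with PAX6 at 9.58 and 6.58, had 5 globin genes (HBA1, HBAD, HBBR, HBE and HBZ) between 15.64 and 16.96. Of the other erythroid genes measured, TAL1, EPB42, SPTB and GYPC did not exceed 8.38 in these 2 cells. SLC4A1 read 5.0 in replicate 4 and 11.38 in replicate 6, and the transferrin receptor TFRC 14.75 and 16.42. Lower globin signals were present in replicate 2 (HBA1 13.15, HBAD 11.88 and HBE 11.90) and replicate 1 (HBBR 12.69 and HBA1 9.42). Replicates 2 and 3 had PAX6 at 14.33 and 14.10, and replicate 3 alone had neither set. NES, of neural progenitors, read 11.08 to 16.27 in all 6 E3 cells. VIM, shared by progenitors and glia, read 14.84 to 16.70 except in replicate 6 (5.0). FZD5, a Wnt receptor of the eye field, read 15.27, 13.61 and 16.26 in replicates 2, 3 and 4 and did not exceed 5.30 in the others. The markers were thus mixed. In replicates 1, 5 and 6, PAX6, LHX2 and FZD5 do not show the retinal identity that the label gives.

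Some properties of the arrays differed between the ages, and background differed mainly on a single array. The signal at the 3′ end of ACTB, cytoskeletal actin, exceeded that at the 5′ end by 6.65 ± 1.98 log2 units at E3 (SD, n = 6) and 1.94 ± 1.55 at E6 (SD, n = 10), while for GAPDH the excess was 0.78 and 0.75. Background, the 95th percentile of probe sets designed on other sequence records, lay between 5.91 and 7.62 on E3 arrays. On E6 arrays it lay inside that range, between 5.97 and 7.25, apart from replicate 7 at 9.67. HINTW, a gene of the female-specific W chromosome, read 15.14, 16.28 and 17.15 in E3 cells and 5.0, 5.0 and 7.97 in E6 cells. Every E3 cell was high and every E6 cell low, so age and the sex of the embryos cannot be told apart. Of 604 genes on the Z chromosome, present in 2 copies in males, 57 (9.44%) were at least 3 log2 units higher at E6 and 14 (2.32%) at E3. Among 12224 genes placed elsewhere those shares were 6.2% and 4.16%. Of 17 genes placed on the W chromosome, 0 passed at E6 and 2 (11.8%) at E3, with a median difference of -0.21. Globin signals did not exceed 8.77 in any E6 cell. The 11 measured erythroid genes averaged 5.87 to 12.49 per cell at E3 and 5.84 to 7.47 at E6. The part of RNA quality, embryo sex, genes of other tissues and background in the results below was not tested.

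Over 13008 genes, 818 (6.29%) were at least 3 log2 units higher at E6 and 528 (4.06%) at least 3 higher at E3. In 96 genes (0.738%) every E6 cell lay above every E3 cell, and in 37 (0.284%) the reverse held. Without E6 replicate 7 the 4 counts were 842 (6.47%), 565 (4.34%), 107 (0.823%) and 48 (0.369%). The median difference of all genes was 0.22, and it moved by -0.27 under quantile normalization and by -0.26 under scaling to a common 75th percentile. E6 held 60.8% of the genes past 3 units as deposited, 52.9% after quantile normalization and 49.9% after percentile scaling. Of the genes whose ages did not overlap it held 72.2%, 62.4% and 44.1%. Without E3 replicate 4 the count with every E3 cell on top was 59 in place of 37. Over 37693 chicken probe sets the 4 counts were 1471 (3.9%), 755 (2%), 188 (0.499%) and 50 (0.133%), and over the 7824 genes detected in at least 3 of the 16 cells 818 (10.5%), 524 (6.7%), 96 (1.23%) and 37 (0.473%). Genes are represented by their brightest probe set. Of 921 genes past 3 units with several probe sets, 246 had every probe set past 1 unit the same way, and 78 had one past 1 unit the other way.

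The counts were also taken without the E3 cells that carried genes of other tissues. Without replicates 4 and 6, the cells with 5 high globin genes, 844 (6.49%) and 700 (5.38%) genes were past 3 units at E6 and E3, and 145 (1.11%) and 73 (0.561%) did not overlap. Without replicate 2 as well, these were 856 (6.58%), 744 (5.72%), 173 (1.33%) and 129 (0.992%). Without replicates 1 and 5, the cells with COL1A1, LUM and FLI1, they were 926 (7.12%), 602 (4.63%), 122 (0.938%) and 85 (0.653%). With replicates 2 and 3 as the only E3 cells they were 1057 (8.13%), 909 (6.99%), 246 (1.89%) and 284 (2.18%). Fewer cells leave more genes without overlap by construction. With those 2 cells alone, PAX6 differed by 1.46 in place of 6.58 and LDHA by 1.74 in place of 5.95. CEBPG differed by 1.09 in place of 3.83 and PARD3 by 2.37 in place of 3.81. With those 2 cells, no other of the 114 genes past 3 units picked by the naming rules given at the end came under that size, globins apart. Other settings took more of the 114 under 3 units. These were 7 without replicates 4 and 6, and 11 without replicates 2, 4 and 6. With the mean of all probe sets of a gene 35 came under, and with the floor at the highest array background 49. Further list members named below are not covered by these counts, and some of them did come under that size.

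**Figure D1:**
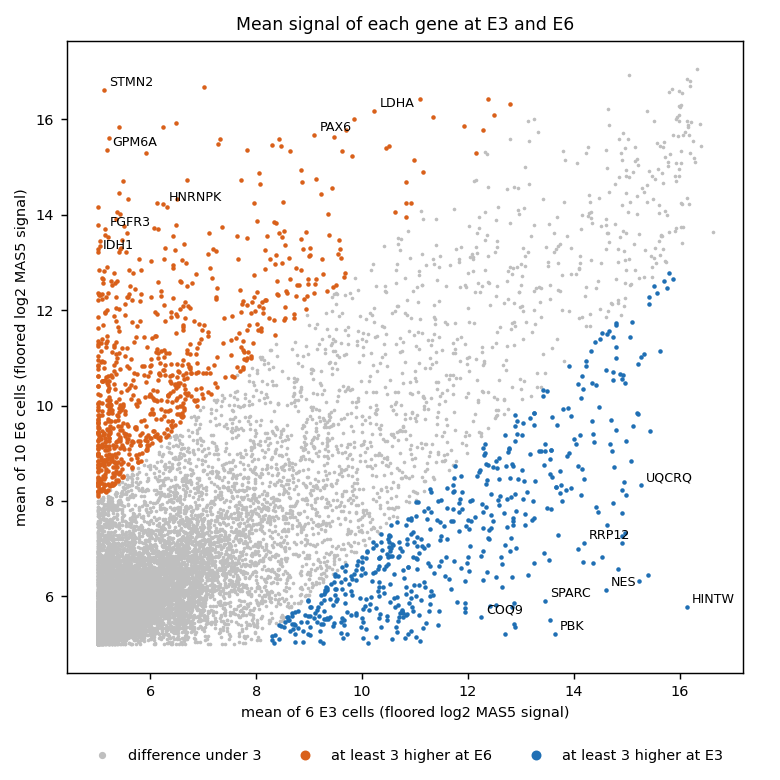
Each point is 1 of 13008 genes, with its mean over 6 E3 cells on the horizontal axis and over 10 E6 cells on the vertical axis (floored log2 MAS5 signal, no error bars). Genes at least 3 log2 units apart are coloured (818 higher at E6, 528 higher at E3); STMN2 and GPM6A stand at the upper left and HINTW and PBK at the lower right.

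Genes with a wide gap and E6 on top, beside STMN2 and GPM6A, are described next. SPTBN1, a spectrin, read 5.0, 5.0 and 6.32 at E3 and 14.46, 15.34 and 18.14 at E6. ANK2, an ankyrin that ties spectrin to membrane proteins, read 5.0, 5.0 and 5.54 against 11.47, 14.02 and 15.66. RTN1, an endoplasmic reticulum protein of neurons, read 5.0, 5.0 and 6.59 against 14.37, 15.53 and 17.95, and its 3 probe sets differed by 10.43 to 10.83. In all 3 the lowest E6 cell stood far above the highest E3 cell. SCN3B, an auxiliary sodium channel subunit, reached 7.03 at E3 and started at 13.23 at E6. SNAP25, a SNARE protein of vesicle fusion, ran up to 5.61 at E3 and from 10.54 to 14.32 at E6. RAB6A, a Golgi traffic GTPase, was not silent at E3, with 3 of 6 cells detected and a maximum of 10.18, but all E6 cells lay between 15.02 and 17.12.

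PSMC6, an ATPase of the proteasome cap, was at the floor in all 6 E3 cells and read 13.00, 14.30 and 15.47 at E6. FGFR3, a receptor for fibroblast growth factors, read 5.0, 5.07 and 5.41 against 12.58, 13.45 and 16.02, although others of its 4 probe sets differed by as little as -0.67. MAPK4, an atypical MAP kinase, read 5.0, 5.0 and 6.18 against 11.75, 13.70 and 14.50. No cell of either age lay between the groups in these genes, which follows from their choice by the gap. Other probe sets of several of these genes differed little or the other way, with the lowest at -0.53 for ANK2 (9 probe sets), -1.06 for SCN3B, -0.13 for SNAP25 (7), 1.24 for SPTBN1 (4), 0.012 for RAB6A (5), -0.17 for GPM6A and -0.12 for MAPK4. TMEM163, a zinc transporter, differed by 8.57, STMN3, a relative of STMN2, by 8.27, PTP4A1, a protein tyrosine phosphatase, by 7.82, and RBPMS2, an RNA-binding protein of ganglion cells, by 6.85. STMN3 and RBPMS2 were at the floor in all E3 cells. For a gene found in 0 of 6 cells the exact (Clopper-Pearson) 95% interval of the share of cells runs to 45.9%. For 10 of 10 cells it runs from 69.2%. These bounds cover counting error only and take cells as independent, although cells of an age may share an embryo. They also do not allow for the choice of these genes by their gaps.

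**Figure D2:**
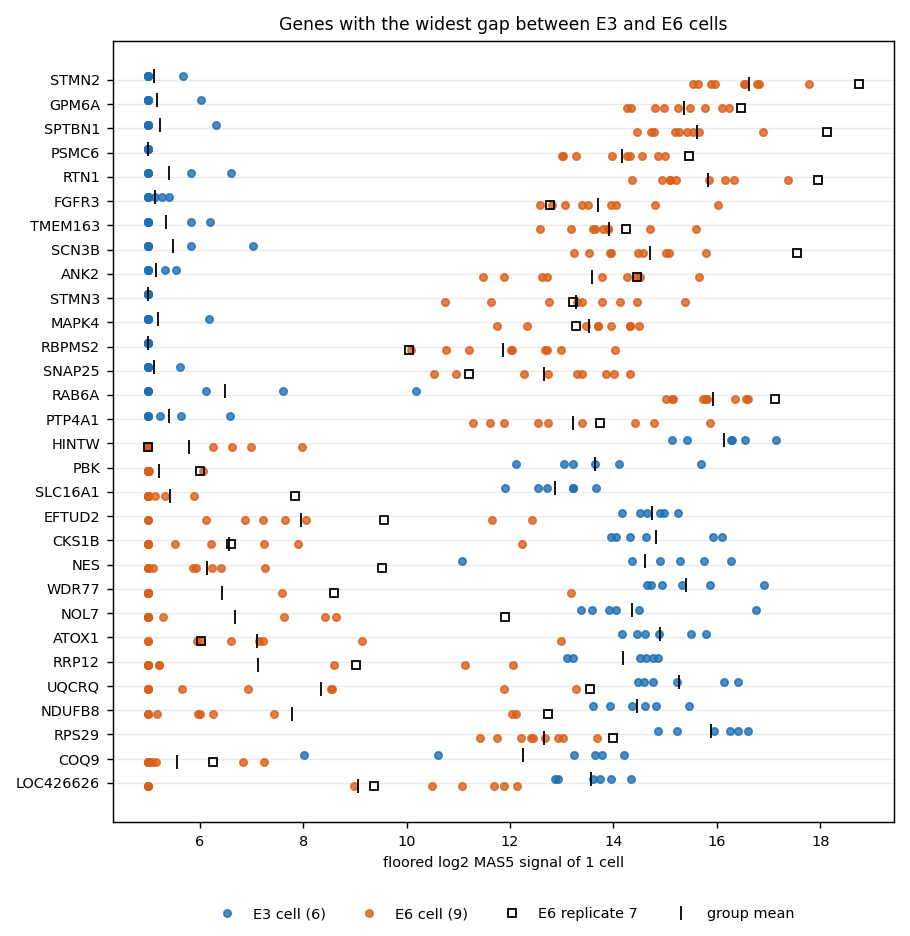
Each row is 1 gene and each point 1 cell (E3 blue, E6 orange, E6 replicate 7 as an open square, black ticks the group means), on the floored log2 MAS5 scale. The upper 15 genes have every E6 cell above every E3 cell, and in the lower 15, from HINTW down, the order is reversed, with E6 cells spread more widely in EFTUD2, UQCRQ and NDUFB8 than in PBK.

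After HINTW and PBK, wide gaps with E3 on top were found in the following genes. NES, the intermediate filament nestin of neural progenitors, read 11.08, 15.09 and 16.27 at E3 and 5.0, 5.90 and 9.52 at E6. CKS1B, a subunit of cyclin-dependent kinases, read 13.95, 14.48 and 16.11 against 5.0, 5.87 and 12.24. SLC16A1, a lactate and monocarboxylate transporter, read 11.90, 12.97 and 13.66 against 5.0, 5.0 and 7.85. All 6 E3 cells had these genes, and NES was detected in 2 of 10 E6 cells. The highest E6 value of NES, 9.52 in replicate 7, lay under the background of that array, 9.67. WDR77, a partner of the arginine methyltransferase that acts on spliceosomal proteins, read 14.64, 15.13 and 16.91 against 5.0, 5.0 and 13.17. NOL7, a nucleolar protein, differed by -7.67, ATOX1, a copper chaperone, by -7.79, and COQ9, needed for coenzyme Q synthesis, by -6.69. RPS29, a ribosomal protein, was detected in every cell of both ages and stood at 14.85, 16.10 and 16.61 against 11.42, 12.55 and 13.99, a smaller difference of -3.23. LOC426626 differed by -4.51. That the ages did not overlap in these genes follows from their choice by the gap. Their E6 cells ranged from the floor to above 12 in CKS1B, EFTUD2, WDR77, ATOX1, RRP12, UQCRQ, NDUFB8 and LOC426626.

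E3-higher genes were shorter. The median genomic span was 9.27 kb for genes past 3 units at E3, 25.5 kb for those past 3 units at E6 and 17.2 kb for all genes. Among genes without overlap the medians were 4.65 kb and 22.9 kb. The part of gene length in the differences was not tested.

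The signalling lists held 324 measured genes, of which 34 (10.5%) were past 3 units at E6 and 8 (2.47%) at E3. Each list here and below stands beside 6.29% of all genes past 3 units at E6 and 4.06% at E3. Among genes detected in at least 3 of the 16 cells, those shares were 10.5% and 6.7%. In the Notch pathway 1 of 25 measured genes (4%) passed in each direction, near the shares of 6.29% and 4.06% among all genes. NOTCH1, a receptor, read 5.0, 8.86 and 13.45 at E3 and 5.0, 5.0 and 8.45 at E6, a difference of -3.66 that was -2.77 without E3 replicate 3. LFNG, a glycosyltransferase that tunes Notch receptors, read 5.0, 5.27 and 8.0 against 5.08, 10.65 and 13.88. The ages overlapped in both genes. In the Wnt list, with 39 measured genes, CTNNB1 and DKK3 were past 3 units at E6 (5.13%) and FZD5 at E3 (2.56%), also near the shares of all genes. FZD5, a Wnt receptor of the eye field, was mixed at E3, with 5.0, 9.46 and 16.26, and did not exceed 5.13 at E6. CTNNB1, the β-catenin of Wnt signalling and adherens junctions, read 5.0, 6.31 and 12.24 against 10.68, 14.12 and 15.75. None of the 13 Hedgehog and 16 retinoic acid genes passed 3 units. The largest differences there were -2.72 for SMO, the Hedgehog signal transducer, and 2.45 for KIF7, a ciliary kinesin, and -2.22 for STRA6, a retinol transporter, and 1.75 for CRABP1, a retinoic acid binding protein.

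FGF receptors pointed in opposite directions. Beside FGFR3 at 8.56, FGFR2 differed by -3.36 and the ligand FGF2 by -3.09, while PTPN11, a phosphatase that carries receptor signals to the MAP kinases, differed by -3.81. FGF13, an intracellular FGF that binds sodium channels, read 5.0, 5.0 and 5.45 at E3 and 5.0, 11.03 and 15.53 at E6. In all, 2 of 38 FGF and MAP kinase genes (5.26%) were past 3 units at E6 and 3 (7.89%) at E3. Among all genes the shares were 6.29% and 4.06%. The E3 count of this list was 1 without E3 replicate 5 or without E3 replicate 6. In the BMP and TGF-β list 5 of 37 (13.5%) were past 3 units at E6 and 0 at E3. TGFB2, a secreted ligand, read 5.0, 5.0 and 5.47 against 5.0, 10.86 and 14.76, and the other 4 were the ubiquitin ligase SMURF1 (4.97), the BMP antagonist NBL1 (4.55), the signal transducer SMAD2 (3.86) and the ligand BMP7 (3.39). TGFB2 and SMURF1 were each detected in 7 of 10 E6 cells and in 0 E3 cells. The E3 count of the BMP and TGF-β list was 2 without E3 replicate 4, without E3 replicate 6 or after percentile scaling. It was 1 after quantile normalization or without E3 replicate 5. The median of that list, 0.17, was -0.07 after quantile normalization and -0.08 after percentile scaling. In the insulin list of 28 genes, IGF1R, the IGF receptor, differed by 4.69 and EIF4EBP1, a translational repressor under mTOR, by -5.50, with 12.75, 15.02 and 15.48 at E3 and 5.74, 8.41 and 14.16 at E6. PTN, the growth factor pleiotrophin, reached only 5.07 at E3 and read 5.19, 12.43 and 14.91 at E6, and it alone of 28 further growth factors and receptors passed 3 units.

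Of 50 measured G protein and calcium genes, 11 (22%) were past 3 units at E6 and 0 at E3, with a list median of 0.61 against 0.22 for all genes. PPP3CA and PPP3CB, catalytic subunits of the calcium-dependent phosphatase calcineurin, differed by 6.83 and 4.11. GNAI1, an inhibitory G protein α subunit, differed by 6.44, and GNG10, a γ subunit, by 6.58. GNG2, another γ subunit, was present in all cells and still did not overlap, with 6.67, 8.92 and 9.80 at E3 and 10.44, 12.87 and 14.24 at E6. GNB4, a β subunit, read 5.0, 5.0 and 6.58 against 6.70, 10.20 and 11.83.

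Axon guidance genes numbered 11 of 50 (22%) past 3 units at E6 and 1 (2%) at E3, beside 6.29% and 4.06% of all genes. ROBO2, a receptor for the midline repellent Slit, read 5.0, 5.0 and 6.58 at E3 and 8.21, 14.61 and 16.89 at E6. DPYSL2 and CRMP1, cytosolic mediators of semaphorin signals, read 5.0, 6.10 and 7.41 against 10.88, 14.86 and 15.75, and 5.0, 9.81 and 14.49 against 14.59, 15.67 and 17.03. CRMP1 was thus already detected in 3 E3 cells, though every E6 cell was brighter. Semaphorin receptors PLXNA2 (5.29), PLXNA1 (4.27) and PLXNB2 (3.23), the semaphorin SEMA6A (5.61), the netrin receptor NEO1 (4.54) and the ligand SLIT2 (3.32) were also higher at E6. SEMA5B, a semaphorin, differed by -3.58, and was under 3 units without E3 replicate 5.

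**Figure D3:**
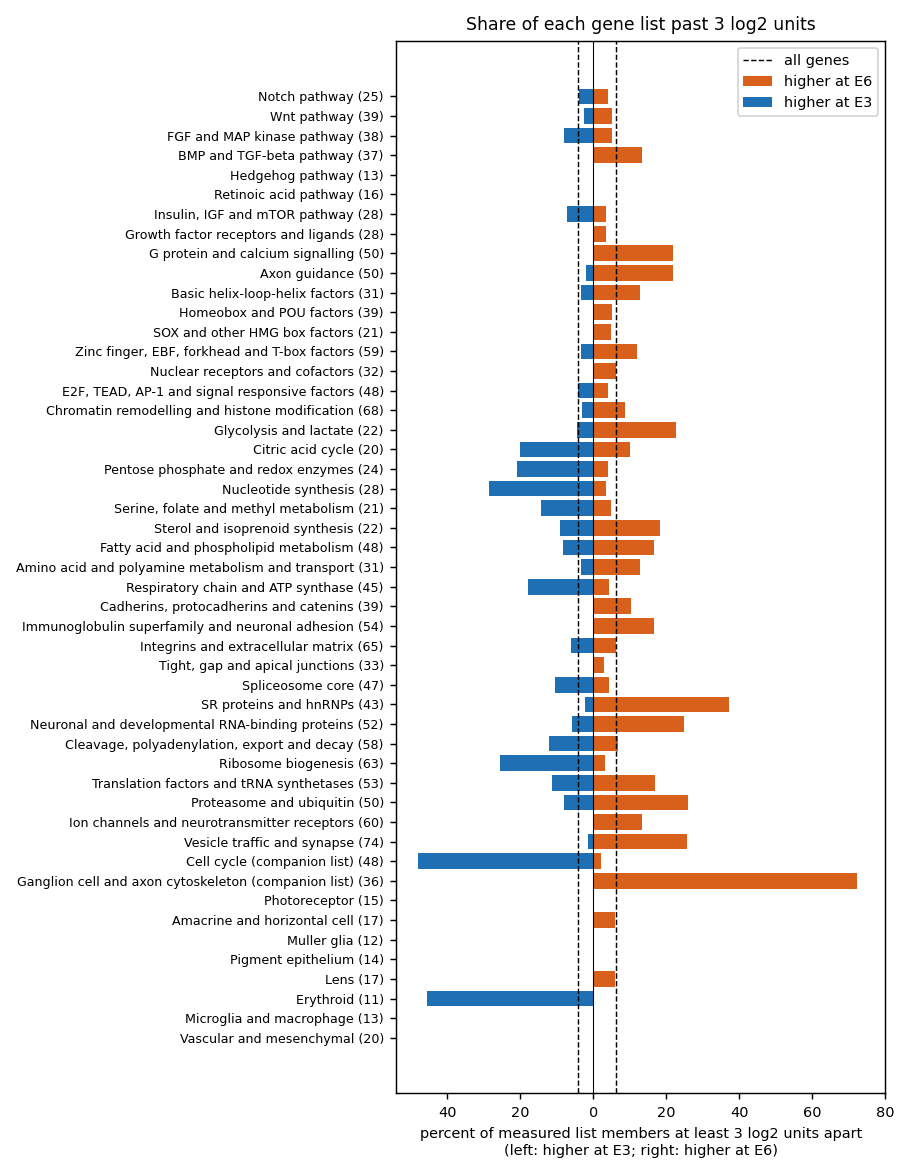
Bars give the percentage of the measured members of each list (number in brackets) whose mean was at least 3 log2 units higher at E6 (right, orange) or at E3 (left, blue). Dashed lines mark the shares among all genes, 6.29% and 4.06%; 37.2% of SR proteins and hnRNPs lie to the right and 25.4% of ribosome biogenesis genes to the left.

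Among 230 measured transcription factors 18 (7.83%) were past 3 units at E6 and 5 (2.17%) at E3, near the 6.29% of all genes at E6 and below the 4.06% at E3. EBF3, an early B-cell factor of postmitotic neurons, read 5.0, 5.05 and 12.13 at E3 and 14.99, 15.75 and 17.37 at E6, and its 3 probe sets differed by 3.37 to 9.62. PAX6 read 5.0, 8.08 and 14.33 against 14.95, 15.63 and 16.99, and was detected in every E6 cell and in 3 E3 cells. ISL1, a LIM homeobox factor of ganglion cells, was detected in 8 of 10 E6 cells with 5.0, 14.18 and 16.50 and did not exceed 6.52 at E3. ISL1 and PAX6 made 2 of 39 measured homeobox and POU factors (5.13%) past 3 units at E6, near the share of all genes, and 4 passed without E3 replicates 1 and 5. NHLH2, a basic helix-loop-helix factor of young neurons, read 5.0, 5.0 and 6.54 against 7.0, 11.85 and 15.51.

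MYCN, a driver of progenitor growth, differed by -5.02, while MXI1 (5.25), MXD4 (3.47) and MXD1 (3.13), which compete with MYC proteins for their partner MAX, were higher at E6. MXI1 was at the floor in all E3 cells and read 5.0, 10.92 and 13.42 at E6. Of 31 helix-loop-helix genes, 4 (12.9%) passed at E6 and 1 at E3, and after quantile normalization 2 passed at E6. E2F1, which switches on genes of DNA replication, read 5.0, 12.13 and 14.23 at E3 and 5.0, 5.19 and 12.50 at E6, and a single E6 cell had it. In the zinc finger, EBF and forkhead list 7 of 59 (11.9%) passed at E6, among them MYT1 (6.60) and MYT1L (3.79), which repress non-neuronal genes, KLF6 (5.17), BCL11A (3.58), ZNF423 (3.58) and SP3 (3.38), and KLF11 (-4.51) and ZIC2 (-3.14) passed at E3, 1 in place of these 2 without E3 replicate 3 or 4 or without any 1 of E6 replicates 1, 2, 4, 6, 8, 9 and 10. MYT1 was detected in 8 of 10 E6 cells and 0 E3 cells. The nuclear receptors RORA and NR2F2 were each near the floor in all E3 cells and uneven at E6, with 5.0, 10.03 and 14.39, and 5.0, 8.89 and 16.36. HMGB3, a chromatin protein of the HMG box family, was higher in every E6 cell (14.05, 14.73 and 16.31) than in any E3 cell (5.0, 8.47 and 13.60), and its 2 probe sets differed by 6.10 and 8.93. CEBPG (3.83) and ATF4 (3.03), leucine zipper factors of the amino acid response, were higher at E6, and NFYC, a CCAAT box factor, lower (-3.53).

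Of 68 chromatin genes, 6 (8.82%) were past 3 units at E6 and 2 (2.94%) at E3, beside 6.29% and 4.06% of all genes. The histone chaperones NASP and ASF1A, which deliver new histones behind the replication fork, were present in all 6 E3 cells, with 14.63, 15.28 and 16.59 and with 10.22, 14.35 and 15.02. At E6 they read 5.0, 7.37 and 15.31, and 5.0, 6.54 and 14.48, so a part of the E6 cells had them at E3 levels. The 3 probe sets of NASP differed by -5.98 to -3.94. KMT2E (4.64), the deacetylases HDAC4 (4.51) and HDAC2 (4.23), and MBD3 (3.93), CHD4 (3.71) and ARID1A (3.82), subunits of nucleosome remodelling complexes, were higher at E6.

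Metabolic lists divided by pathway. Of 261 measured genes, 28 (10.7%) were past 3 units at E6 and 36 (13.8%) at E3. In glycolysis, 5 of 22 (22.7%) were past 3 units at E6, and 3 when E3 replicates 2 and 3 alone stood for E3. LDHA, which interconverts pyruvate and lactate, read 5.0, 11.25 and 14.64 at E3 and 15.00, 15.87 and 18.29 at E6. HK1, the first enzyme of the pathway, differed by 5.45, PFKFB3, a regulator of phosphofructokinase, by 3.24, and ENO2, the neuronal enolase, by 3.92. The lactate transporters pointed in opposite directions, with SLC16A3 at 3.90 and SLC16A1 at -7.45. Of the SLC16A1 probe sets 1 differed by 0.45. The isocitrate dehydrogenases did the same: IDH1, the cytosolic form, was at the floor in every E3 cell and read 9.38, 13.83 and 15.39 at E6, while the mitochondrial IDH2 read 10.63, 13.25 and 14.25 at E3 and 5.0, 7.50 and 10.48 at E6. The ages did not overlap in either, though the second IDH2 probe set differed by 0.14. GOT2, the mitochondrial aspartate aminotransferase, read 14.87, 15.78 and 16.06 against 5.0, 12.37 and 14.52, though its other probe set differed by 2.46. DLD (-4.46) and IDH3A (-3.39) were also lower at E6 and IDH3B (3.08) higher. In all, 4 of 20 (20%) citric acid cycle genes passed at E3 and 2 (10%) at E6, beside 4.06% and 6.29% of all genes. The E6 count was 1 after quantile normalization or percentile scaling. It was also 1 without E3 replicate 3 or 6, or without E6 replicate 1, 2, 3, 4 or 8.

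Respiratory chain, redox and nucleotide lists each held more genes past 3 units at E3 than at E6. Of 45 respiratory chain and ATP synthase genes, 8 (17.8%) passed at E3 and 2 (4.44%) at E6, and the list median was -0.99. The shares of all genes were 4.06% and 6.29%. UQCRQ and UQCRFS1, subunits of complex III, differed by -6.93 and -6.55, and NDUFB8, of complex I, by -6.69. UQCRQ was present in all E3 cells at 14.47, 14.99 and 16.42 and scattered from 5.0 to 13.54 at E6. UQCRB, of the same complex, differed by 4.95 in the other direction. The count at E3 was 5 without E3 replicate 4 and 5 without E6 replicate 5. Of 24 pentose phosphate and redox genes, 5 (20.8%) passed at E3, and 8 after percentile scaling. PRDX3, a mitochondrial peroxiredoxin, read 13.82, 14.80 and 16.05 against 5.0, 5.72 and 13.20. GPX1, a glutathione peroxidase, read 12.15, 13.60 and 14.52 against 5.0, 5.34 and 15.08, with a single E6 cell detected, and it was that cell which exceeded all E3 cells. Nucleotide synthesis had 8 of 28 (28.6%) at E3 and 1 at E6, with a list median of -0.61, and with E3 replicates 2 and 3 alone 6 (21.4%), 2 and 0.35. UMPS, of pyrimidine synthesis, differed by -5.53 and by -4.27 in its second probe set, and the remaining 7 were DUT (-5.18), both ribonucleotide reductase subunits RRM1 (-4.50) and RRM2 (-4.02), PAICS (-3.79), ATIC (-3.70), TK1 (-3.63) and PPAT (-3.21). HPRT1, which salvages purines instead of building them, was the exception, with 5.0, 5.34 and 5.60 at E3 and 5.72, 10.39 and 13.42 at E6.

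Lipid and amino acid genes were mixed. In the sterol list INSIG1 (5.96), HMGCS1 (5.42), STARD4 (4.18) and MSMO1 (3.55) were higher at E6 and LSS (-4.66) and HSD17B7 (-3.37) lower, out of 22. These made 18.2% and 9.09% of the list, beside 6.29% and 4.06% of all genes. INSIG1, which restrains sterol synthesis, was at the floor or within 0.01 of it in E3 cells and read 5.0, 12.70 and 15.90 at E6. HMGCS1, an early enzyme of that synthesis, read 5.0, 5.02 and 5.41 against 5.0, 11.06 and 15.77. Both were detected in 7 of 10 E6 cells. Fatty acid and phospholipid genes passed in 8 of 48 (16.7%) at E6, led by the desaturase SCD5 with 5.0, 5.58 and 11.59 against 7.86, 13.57 and 14.47, and in 4 at E3, including ACLY (-4.51), which makes cytosolic acetyl-CoA. CTH, which makes cysteine, was at the floor in all E3 cells and read 5.0, 11.45 and 13.93 at E6. AHCY, which clears the product of methylation reactions, differed by -4.90. OAZ1 and OAZ2, antizymes that restrain polyamine synthesis, differed by 2.82 and 5.50, and in OAZ1 every E6 cell, from 15.09, lay above every E3 cell, up to 15.05.

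**Figure D4:**
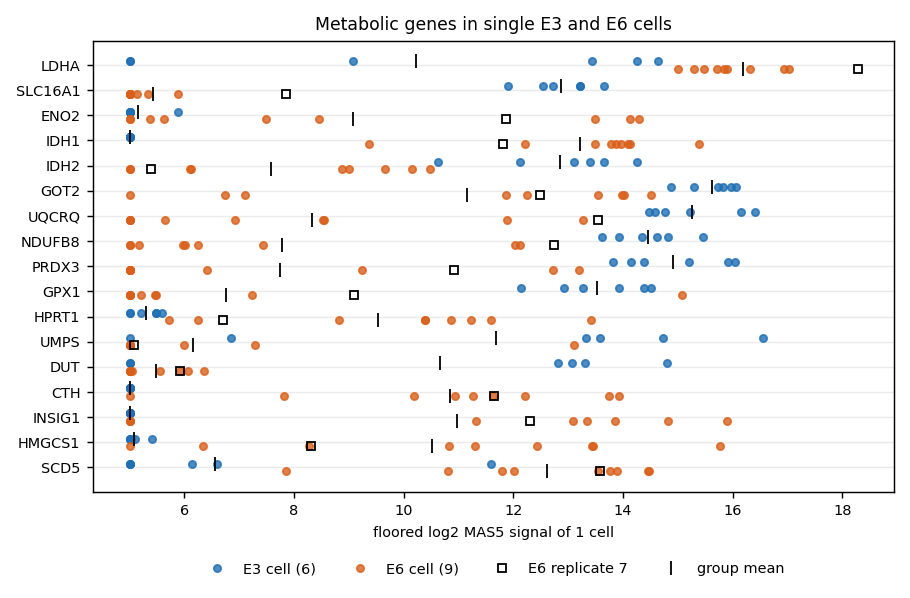
Each row is a metabolic gene and each point 1 cell (E3 blue, E6 orange, E6 replicate 7 as an open square, ticks the group means), on the floored log2 MAS5 scale. IDH1 was at 5.0 in all 6 E3 cells and IDH2 between 10.63 and 14.25, while the E6 cells lay at 9.38 to 15.39 and 5.0 to 10.48.

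In the adhesion lists 18 of 191 measured genes (9.42%) were past 3 units at E6 and 4 (2.09%) at E3. Immunoglobulin superfamily and neuronal adhesion genes accounted for 9 of 54 (16.7%) at E6 and 0 at E3. ASTN1, an astrotactin of neuron migration, read 5.0, 5.0 and 5.21 at E3 and 6.93, 13.90 and 16.30 at E6. LINGO1, a leucine-rich repeat membrane protein, read 5.0, 5.0 and 10.59 against 11.22, 13.94 and 14.80. The others included NCAM1 (5.73), the classical neural cell adhesion molecule, MDGA2 (5.40), CADM1 (4.36), CADM2 (4.01), TENM2 (3.93) and NFASC (3.84). Among 39 cadherins, protocadherins and catenins, the 4 past 3 units at E6 were 3 catenins, namely CTNNA2 (6.09), CTNNB1 and CTNND1 (4.05), and the protocadherin PCDH9 (3.49). CTNNA2, the neuronal α-catenin, read 5.0, 5.60 and 13.53 against 9.14, 13.75 and 14.72. CDH2, the main cadherin of the neural epithelium, differed by 1.65 and was detected in 3 of 6 E3 and 9 of 10 E6 cells.

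Of 65 integrin and matrix genes 4 (6.15%) were past 3 units in each direction, near the shares of 6.29% and 4.06% among all genes. AGRN, a proteoglycan that clusters receptors at synapses, read 5.0, 6.15 and 8.41 at E3 and 12.75, 14.25 and 16.06 at E6. SPARC, a secreted matrix-binding protein, read 5.0, 15.03 and 16.41 against 5.0, 5.77 and 7.81, and 1 E3 cell lacked it. RELN (5.96), the secreted protein reelin, ITGB1 (4.08) and GPC1 (3.83) were higher at E6. The basement membrane chain LAMB1 (-3.39), COL5A2 (-3.33) and SDC2 (-3.13) were lower at E6, and 1 gene in place of 4 passed at E3 without E3 replicate 1, without E3 replicate 5 or without both, the cells with COL1A1, LUM and FLI1. Of 33 junction genes PARD3 (3.81), a polarity protein, alone passed, and it was read in 6 of 10 E6 cells. In E6 replicate 7 PARD3 read 9.40, under the background of that array, 9.67.

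RNA processing lists had 46 of 316 measured genes (14.6%) past 3 units at E6 and 38 (12%) at E3. Among SR proteins and hnRNPs, which select splice sites, 16 of 43 (37.2%) passed at E6 and 1 at E3, with a list median of 1.36. HNRNPK, which binds C-rich RNA, read 5.0, 5.0 and 12.23 at E3 and 12.37, 14.62 and 15.18 at E6. Its lowest probe set difference was -0.15. SRSF1, an SR protein, read 5.0, 5.36 and 7.02 against 5.0, 14.06 and 15.15, with 8 of 10 E6 cells detected. SRSF2 (4.99), SRSF7 (4.05), TRA2B (4.46), SRRM1 (4.76), SFPQ (4.29), HNRNPU (4.11), HNRNPD (4.04) and the kinases CLK3 (3.69) and CLK4 (3.86), which phosphorylate SR proteins, belonged to the same group. In each E6 cell the mean of this list, 10.34 to 11.33, exceeded that of every E3 cell, 8.15 to 9.94. The spliceosome core had 2 of 47 at E6 and 5 (10.6%) at E3, and the latter count was 10 after percentile scaling and 8 after quantile normalization, without E3 replicate 4 or without E6 replicate 2. EFTUD2, a GTPase of the U5 particle, read 14.16, 14.78 and 15.26 against 5.0, 7.44 and 12.42, and SNRPE (-5.38), SNRNP40 (-5.23) and LSM6 (-5.06) were also lower at E6. LSM8, a ring protein of the U6 particle, differed by 5.40.

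Neuronal and developmental RNA-binding proteins passed in 13 of 52 (25%) at E6 and 3 at E3. RBPMS2 was described with the widest gaps, and its relative RBPMS differed by 6.26. ELAVL4 (6.47) and ELAVL2 (5.14) are neuronal RNA stabilisers, and both probe sets of ELAVL4 were high, at 6.47 and 7.12. ELAVL1, their ubiquitous relative, read 5.0, 6.34 and 7.65 at E3 and 8.52, 13.48 and 16.62 at E6 in its brightest probe set, but another differed by 0.73. PCBP3, a poly(C) binding protein, did not overlap, with 5.0, 5.39 and 6.37 against 7.46, 12.12 and 15.42. NOVA1 (5.21), CELF2 (5.39), CELF4 (3.67) and KHDRBS3 (4.05), which regulate splicing in neurons, the translational repressor PUM2 (7.29), STAU2 (3.91) of RNA transport, and MSI1 (5.08), best known as a progenitor protein, were higher at E6. IGF2BP3, an RNA-binding protein of embryonic tissues, gave no settled direction, since its 3 probe sets ran from -5.55 to 5.42. RBM38 (-3.61) and MBNL1 (-3.06) were lower at E6, and the E3 count was 1 without E3 replicate 6.

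Cleavage, export and decay factors numbered 4 of 58 (6.9%) past 3 units at E6, near the share of all genes, and 7 (12.1%) at E3, with 11 at E3 after percentile scaling or without E3 replicate 4. The cleavage factors CPSF4 (-7.01), CPSF6 (-4.26) and CLP1 (-3.53), the export factor THOC5 (-4.70), the deadenylase subunit CNOT2 (-6.68), UPF3B (-3.34) of nonsense-mediated decay, and BTG2 (-5.29), an antiproliferative cofactor of deadenylation, were lower at E6. CPSF4 read 6.70, 13.81 and 16.82 against 5.0, 5.0 and 10.84. Those past 3 units at E6 included AGO4, an Argonaute of the small RNA pathway, which read 5.0, 5.0 and 9.52 at E3 and 10.55, 13.32 and 15.22 at E6, with both probe sets up by 3.85 or more, and DICER1 (3.76) and TNRC6B (3.69). Ribosome biogenesis had 16 of 63 (25.4%) at E3 and 2 at E6, with a list median of -0.55, and 10 and 6 without E3 replicates 2, 4 and 6, the cells with at least 3 globin genes high. RRP12, an export factor of the small subunit, read 13.10, 14.57 and 14.87 against 5.0, 5.21 and 12.06. PNO1 (-6.14) and NOB1 (-5.97), which finish the small subunit RNA, GAR1 (-5.19) and NOP58 (-4.73) of the guide RNA particles, and the processome members UTP6 (-4.90), WDR43 (-4.77), WDR3 (-4.31), UTP14A (-4.23) and UTP18 (-3.98) were in the same group. POLR1C (4.53) and SURF6 (3.79) were the exceptions.

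**Figure D5:**
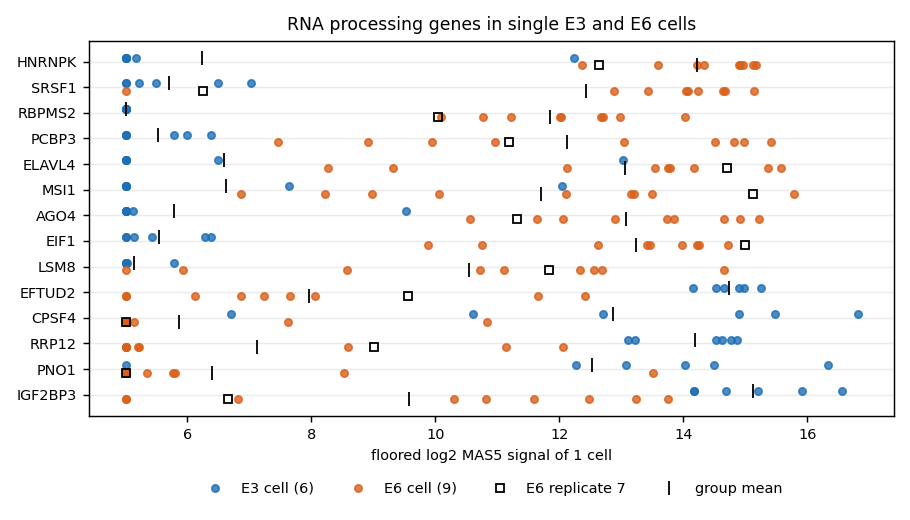
Each row is an RNA processing gene and each point 1 cell (E3 blue, E6 orange, E6 replicate 7 as an open square, ticks the group means), on the floored log2 MAS5 scale. From HNRNPK to LSM8 the E6 mean is the higher, and from EFTUD2 to IGF2BP3 the E3 mean; the E6 cells of RRP12 run from 5.0 to 12.06 and its E3 cells from 13.10 to 14.87.

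Translation factors were divided, with 9 of 53 (17%) past 3 units at E6 and 6 (11.3%) at E3, the latter 10 without E3 replicates 1 and 5. EIF1, which helps to select the start codon, read 5.0, 5.28 and 6.38 at E3 and 9.88, 13.72 and 14.99 at E6. EIF4G3, a scaffold of the cap complex, read 5.0, 5.0 and 6.60 against 5.0, 14.12 and 15.98, with 1 E6 cell, replicate 10, apart from the rest. The tRNA synthetase IARS (-6.68) and both subunits of the phenylalanine enzyme, FARSA (-5.91) and FARSB (-4.18), were lower at E6, and CARS (3.79) and NARS (3.08) higher. Proteasome and ubiquitin genes passed in 13 of 50 (26%) at E6. SKP1, the adaptor of SCF ubiquitin ligases, read 5.0, 5.0 and 10.43 against 13.87, 15.23 and 16.89. Core and cap subunits pointed both ways, with PSMC6, PSMD7 (5.64), PSMB1 (3.82), PSMB3 (3.54), PSMD1 (3.46), PSMA3 (3.44) and PSMA5 (3.37) higher at E6 and PSMD12 (-4.93), PSMB7 (-3.30), PSMB4 (-3.24) and PSMC5 (-3.13) lower. The number at E3, 4, was 7 without E3 replicate 2 and 1 without E6 replicate 8.

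Of 134 measured excitability and vesicle genes 27 (20.1%) passed at E6 and 1 (0.746%) at E3, beside 6.29% and 4.06% of all genes. Ion channels and receptors passed in 8 of 60 (13.3%) at E6 and 0 at E3. CHRNB3, a nicotinic acetylcholine receptor subunit, read 5.0, 5.0 and 5.15 at E3 and 7.90, 14.10 and 15.55 at E6. The glutamate receptor subunits GRIA2 (6.81), GRIK3 (4.38) and GRIA3 (3.93), the calcium channel CACNA1B (6.63) and the sodium channel SCN2A (3.17) were higher at E6 beside SCN3B. Vesicle traffic and synapse genes passed in 19 of 74 (25.7%), and in 6 of them the ages did not overlap. Of all genes 0.738% had every E6 cell on top, and 1.23% of those detected in at least 3 of 16 cells. In this list 62 of the 74 genes were so detected. SYT4 and SYT11, synaptotagmins, read 5.0, 5.0 and 5.0 against 8.46, 12.38 and 14.78, and 5.0, 5.0 and 5.28 against 8.47, 14.01 and 15.92. RAB11A, of recycling endosomes, read 5.0, 5.0 and 5.92 against 8.32, 13.58 and 15.37, and both its probe sets differed by 6.16 or more. RAB8A (-3.06) was the exception while its relative RAB8B differed by 4.96. The E3 count of this list was 0 without E3 replicate 1 or 2 or without E6 replicate 1, 4, 8 or 9. It was 3 without E6 replicate 2.

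Pairs of related genes were set side by side, each by its own difference, with 1 member taken as the more neuronal. That label is loose for some pairs, such as HPCAL1 and VSNL1, which are both neuronal calcium sensors. Both members were measured in 16 of 26 pairs, and the member taken as neuronal had the larger difference in 11. In 6 pairs that member was past 3 units and its relative was not. The reverse held for MSI1 and MSI2, which differed by 5.08 and 1.84. EEF1A1 and EEF1A2, forms of translation elongation factor 1α, differed by 0.71 and 6.09, SNAP23 and SNAP25 by 0.30 and 7.55, ENO1 and ENO2 by 0.72 and 3.92, STMN1 and STMN2 by 0.79 and 11.50, CELF1 and CELF4 by 0.49 and 3.67, and GNB1 and GNB5 by 0.47 and 3.74. In ENO1 the second probe set differed by 3.50. EEF1A2 read 5.0, 6.20 and 13.18 at E3 and 6.26, 14.77 and 16.01 at E6, while EEF1A1 was near 16 in the median cell of both ages. Both members of a pair were past 3 units for the kinesins KIF5B (4.78) and KIF5C (6.39) and for ELAVL1 and ELAVL4. PTBP1 and PTBP2, splicing repressors known to be exchanged as neurons form, differed by -1.01 and 1.50, with overlap in both.

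The 2 framing lists held the remaining well known genes. Of 48 cell cycle genes 23 (47.9%) passed at E3, and 13 (27.1%) without E3 replicates 2, 4 and 6, among the 23 HJURP (-7.54), TPX2 (-7.06), TOP2A (-6.07) and CDC20 (-5.65). The 1 that passed at E6 was CDKN1B, an inhibitor of cyclin-dependent kinases, with 5.0, 5.0 and 5.50 at E3 and 5.91, 12.35 and 14.57 at E6. The ages did not overlap in 3 genes with E3 on top, and in 5 without E3 replicate 5. Over all 13008 genes these counts were 37 (0.284%) and 52. Of 36 ganglion cell and axon genes 26 (72.2%) passed at E6 and 0 at E3.

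Markers of other cell types were mostly low at both ages. None of the 15 photoreceptor, 12 Müller glia, 14 pigment epithelium, 13 microglia and 20 vascular genes passed 3 units. The pigment cell gene DCT did not exceed 5.29 at E3 or 8.06 at E6, and MRC1, of macrophages, 5.72 or 7.14. VIM, shared by progenitors and glia, was high in 5 of 6 E3 cells and all E6 cells. CALB2, of amacrine and ganglion cells, read 5.97, 7.71 and 11.39 against 7.78, 13.17 and 14.25, and CRYBA4, a crystallin known from lens, 5.0, 5.0 and 12.64 against 5.0, 10.53 and 14.11. COL1A1, LUM and FLI1, high together in E3 replicates 1 and 5 as given above, did not exceed 9.51, 7.49 and 6.48 at E6. Of 11 erythroid genes 5 (45.5%) passed at E3, with a list median of -2.90 that was -0.60 without E3 replicates 4 and 6 and -0.29 without replicate 2 as well. HBBR differed by 1.21 with E3 replicates 2 and 3 alone. Over all 6 E3 cells it differed by -3.73, and by -2.52 without E3 replicate 4 and -2.48 without E3 replicate 6. TFRC, the transferrin receptor, which dividing cells also use, read 9.14, 13.72 and 16.42 against 5.0, 9.02 and 14.39.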

How the data were processed

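The values the authors deposited are log2 signals of 38535 probe sets in 41 cells. MAS5 made them, per the submitters' processing notes, and no version of it is given in the sources used. Per the labels' protocols, single-cell cDNA was primed with oligo dT and amplified by PCR, which favours 3′ ends and makes a low signal weak evidence of absence. No scaling was added, since trimmed mean linear signals lay between 498.9 and 499.9 on all arrays.

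Of 37693 chicken probe sets, 27166 had 1 symbol in the platform annotation and 177 several. They gave 13008 genes, 12845 of which matched RefSeq by gene ID. A gene was read from its probe set with the highest mean over all 41 cells. Values were floored at 5.0 (Python 3.11.15, pandas 2.3.3, numpy 2.4.6). After values were shuffled within each gene, known shifts added to E6 cells came back in the difference of means. That checks the arithmetic of the difference only, not the counts. Arrays have no read depth, so precision is limited by the number of cells. No 2 of the 16 arrays were identical.

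The members, the 49 gene lists and the gene pairs were chosen with earlier results of these data known. Genes named were the 4 markers, the 15 with the widest gap in each direction, the members of each list with the widest gap or largest difference, the gene pairs, and the 3 brightest markers of each other cell type. Further list members past 3 units were named after their values were seen. Alternatives changed the floor, scaling, probe sets, mean, detection filter and threshold, and left out cells. Promoter motifs were not analysed here.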

Additional observations from a re-analysis of the deposited data

Results flagged for a closer look

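A cell was picked out where its gap to the next cell of its age, over the range of that age, exceeded the 95% limit of Dixon's test. For normal values in independent groups chance picks out about 1 in 20. That rate is no yardstick here, since the values were not shown to be normal and list means share arrays. Many of the genes were also chosen by their gaps or differences. Of 98 list means 19 were picked out, and 18 of these were E6 replicate 7, the array of high background, as the highest E6 cell. Its means were 7.89 for Notch, 7.77 for Wnt, 8.54 for BMP and TGF-β, 8.53 for Hedgehog and 7.46 for growth factors. They were 8.35 for SOX and HMG box factors, 8.22 for zinc finger, EBF and forkhead factors and 8.58 for nuclear receptors. In adhesion they were 8.04 for cadherins, 7.61 for integrins and matrix and 7.98 for junctions. It also led the ganglion cell list (12.80) and the amacrine and horizontal (7.95), Müller glia (9.55), pigment epithelium (7.04), lens (8.30), microglia (6.72) and vascular (7.84) lists. The remaining one was E3 replicate 5, lowest in the cell cycle list at 6.11.

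Of 342 gene groups 32 were picked out, on values before the floor. Among E3 cells, replicate 5 was low in ASF1A (10.22) and HJURP (7.10) and high in OAZ2 (13.59), HNRNPK (12.23) and SKP1 (10.43). Replicate 6 was low in NES (11.08), SPARC (4.76) and VIM (4.44) and high in AGO4 (9.52). Replicate 4 was high in NOL7 (16.76) and low in OAZ1 (6.72), and replicate 3 was high in CEBPG (14.21), KIF5B (8.56) and SS18L1 (5.61). Replicate 1 was high in CRYBA4 (12.64) and STMN2 (5.67) and low in PNO1 (4.43), MIP (3.75) and NEUROD1 (2.14), and replicate 2 was low in VSNL1 (-0.14).

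Among E6 cells, replicate 7 was high in STMN1 (19.90), CRYGS (10.70), COL1A2 (10.14), NEUROD1 (9.52), AIPL1 (9.42) and FZD5 (5.13). Replicate 9 was low in ASTN1 (6.93) and KIF5C (3.15), replicate 10 in EIF4G3 (4.93), replicate 5 in GNB1 (11.19) and replicate 4 in RGR (0.56), and replicate 2 was high in E2F1 (12.50).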

How the results depend on the processing

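No paired analysis was possible because no result comes from a test and replicate numbers only name separate cells. Under quantile normalization or 75th percentile scaling, 17 of the 49 list medians, all 0.33 or smaller in size as deposited, changed sign, and percentile scaling turned the excess of E6 among genes without overlap into an excess of E3. With genes detected in at least 3 of 16 cells 10 list medians changed sign, among them serine and folate (0.31 to -1.54), Notch (0.015 to -0.75) and microglia (0.18 to -0.58), and 12 did so without E6 replicate 7. Low signal is a limit: with the floor raised to the highest array background, 9.67, only 111 genes were past 3 units at E6 and 114 at E3, and every E6 cell was above every E3 cell in 51. Raising a floor removes by construction differences that lie wholly under it, large ones included, and shrinks those that lie partly under it. The causes of the other shifts were not tested. Leaving out 1 cell at a time gave 797 to 877 genes past 3 units at E6, 526 to 667 at E3, and 99 to 118 and 38 to 59 without overlap. The alternatives that leave out several E3 cells or Z and W genes were chosen after seeing the data. Without Z and W genes the 4 counts were 761, 512, 92 and 36.

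At the raised floor the list medians were 0.00 for insulin, axon guidance, chromatin, fatty acid, amino acid, immunoglobulin superfamily and ion channel genes, 0.12 for G proteins, 0.30 for SR proteins and hnRNPs, 0.021 for neuronal RNA-binding proteins, 0.34 for vesicle traffic, -1.27 for cell cycle and 2.92 for ganglion cell genes. Without a floor 1259 genes were past 3 units at E6, and the medians were 0.67 for insulin, 0.95 for axon guidance, 0.95 for zinc finger factors, 1.19 for amino acid, 1.09 for ion channel, 1.70 for vesicle and 6.59 for ganglion cell genes. A floor at the 25th percentile gave 1.12 for amino acid genes, 0.98 for neuronal RNA-binding proteins and 6.56 for ganglion cell genes.

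Quantile normalization gave -0.013 for insulin, 0.17 for chromatin, -1.18 for the citric acid cycle and 0.14 for neuronal RNA-binding proteins. Percentile scaling gave 60 and 76 genes without overlap (E6 and E3 on top), and 0.25 for axon guidance, 0.17 for chromatin and 0.89 for SR proteins and hnRNPs. The mean of all probe sets gave 428 genes past 3 units at E6, 269 at E3, 24 with every E3 cell on top and 3.99 for ganglion cell genes. Group medians gave 0.00 for insulin and fatty acid genes, 0.28 for axon guidance, 0.11 for chromatin, 0.56 for SR proteins and hnRNPs, 0.19 for ion channels, 0.66 for vesicle traffic and -1.15 for erythroid genes.

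Genes detected in at least 3 of 16 cells gave -0.75 for Notch, 0.0043 for insulin, 1.29 for G proteins, 1.50 for zinc finger factors, -1.64 for nucleotide synthesis, -1.54 for serine and folate, 0.83 for fatty acid, 1.77 for amino acid, 0.93 for cadherins, 1.61 for neuronal RNA-binding proteins, 1.30 for ion channels, 1.79 for vesicle traffic and -0.58 for microglia. A threshold of 2 units gave 1420 and 995 genes, and one of 4 units 469 and 281. Without E3 replicates 4 and 6, the cells with 5 globin genes above 15, 145 and 73 genes had no overlap, and the medians were 5.51 for ganglion cell and -0.60 for erythroid genes.

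Without E3 replicates 2, 4 and 6, the cells with at least 3 globin genes above 11, 173 and 129 genes had no overlap, and the medians were 0.91 for fatty acid, 5.39 for ganglion cell and -0.29 for erythroid genes. Without E3 replicates 1 and 5, the cells with COL1A1, LUM and FLI1, 85 genes had every E3 cell on top, and the medians were -0.89 for translation factors and 5.46 for ganglion cell genes. Without replicates 1, 4, 5 and 6 the counts were 1057, 909, 246 and 284, and the medians were 0.35 for nucleotide synthesis, 2.30 for SR proteins and hnRNPs, 4.84 for ganglion cell and -0.043 for erythroid genes, and HBBR differed by 1.21.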

Other observations

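HINTW, the W chromosome gene, divided most other ages of the series as well. It read 14.25 to 15.48 in the 5 E5 cells, 14.75 in the E7 cell and 11.17 to 15.50 in the 2 E15 cells. It read 7.76 to 9.73 in the 3 E4 cells, 5.0 to 6.61 in the 6 E9 cells and 5.0 to 6.91 in the 8 E14 cells. The E4 cells lay under the high range and only in part within the low one, which ran to 7.97 at E6. No age held cells of both the high and the low range, with E6 replicate 1 placed by its title. That cell read 5.0, while its source name gives E5.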
